A study of Mus musculus with 18 samples.

Results

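The 10 genes described here dispose of peroxides and superoxide or handle iron and heme in T cells. They are Gpx4, Gpx1, Prdx1, Prdx2, Txn1, Txnrd1, Fth1, Hmox1, Tfrc and Sod1, and each was read by 1 probe set, so they are 10 of 22206 probe sets. The genes were chosen by name with earlier results of these arrays known, and their levels in the groups and their differences between treatments were part of that choice. Their values are therefore given as a description, with no test. Clariom S mouse arrays read the RNA of regulatory T cells (Treg), CD8+ T cells and conventional CD4+ T cells (CD4+ Tconv). The cells were sorted from the spleen of Foxp3 YFP/cre mice, whose Foxp3-expressing cells carry a fluorescent protein and were gated by it. For 24 h each subset was kept in 10 ng/ml IL2 together with either LME-sEVs, small extracellular vesicles (sEVs) taken from spleens of leukemic TCL1 mice, or HCME-sEVs, the same kind of vesicles from healthy control spleens. TCL1 mice carry a human transgene driven in B cells and develop a disease like chronic lymphocytic leukemia, and LME-sEVs were taken from the whole spleen, so the cell of origin of a vesicle was not separated. For mice in general the methods name an age of 8 to 10 weeks and both sexes. Every subset had 3 arrays with LME-sEVs and 3 with HCME-sEVs, which gave 6 groups and 18 arrays. A vesicle concentration of 50 ug/ml stands in the labels of every sample, but the methods scale the amount to what a spleen of either kind contained, so dose and treatment cannot be told apart. Nothing in the labels ties replicates to different mice or cultures, and p-values therefore cover the spread between samples alone, which may be technical.

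Cells reduce hydrogen peroxide and lipid peroxides by 2 parallel routes that both draw on NADPH. Glutathione feeds the glutathione peroxidases, which are selenoproteins, and thioredoxin, recharged by thioredoxin reductase, feeds the peroxiredoxins. Superoxide dismutase supplies the hydrogen peroxide that these enzymes remove. Iron is taken up through the transferrin receptor and stored in ferritin, heme oxygenase frees iron from heme, and free iron turns peroxides into radicals, which is why the systems are described together. In T cells GPX4 protects membrane lipids from oxidation and from the iron-dependent cell death called ferroptosis, and activated T cells raise the transferrin receptor to meet the iron need of division.

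Promoter windows are shown for the genes whose signals varied together from array to array (Gpx4, Gpx1, Prdx2 and Sod1) and for those, beside Sod1, whose window held the core of an antioxidant response element (Prdx1 and Txnrd1), the site read by the stress factor NRF2. The windows come from RefSeq on GRCm38.p6 and run from 250 bases before to 50 bases after a transcription start, 5′ to 3′ on the strand of the gene. Of the 10 genes 9 matched, with 16 windows, and Hmox1 did not. Gpx4 had 4 windows and Txnrd1 had 3. The second of each is shown, chosen after the motif search. That of Txnrd1 alone held the antioxidant response element core, and that of Gpx4 is 1 of the 2 overlapping windows with 3 CCAAT boxes each. Capitals mark the antioxidant response element core (TGACNNNGC, N being any base) and the CCAAT box (CCAAT), both searched on both strands.
Gpx4, chr10:80053315-80053614, plus strand: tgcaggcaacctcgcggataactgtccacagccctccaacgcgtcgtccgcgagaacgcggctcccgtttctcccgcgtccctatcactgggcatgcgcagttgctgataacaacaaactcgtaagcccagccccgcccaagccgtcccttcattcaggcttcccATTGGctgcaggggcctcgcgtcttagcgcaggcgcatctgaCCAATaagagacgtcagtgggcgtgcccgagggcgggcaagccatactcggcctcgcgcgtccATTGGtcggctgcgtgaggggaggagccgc
Gpx1, chr9:108338830-108339129, plus strand: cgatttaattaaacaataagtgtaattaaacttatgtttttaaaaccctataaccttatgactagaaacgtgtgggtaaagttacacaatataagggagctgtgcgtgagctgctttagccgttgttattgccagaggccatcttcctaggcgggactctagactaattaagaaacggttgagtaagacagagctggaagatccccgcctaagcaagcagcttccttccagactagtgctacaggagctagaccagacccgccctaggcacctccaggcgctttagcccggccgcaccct
Prdx2, chr8:84969372-84969671, plus strand: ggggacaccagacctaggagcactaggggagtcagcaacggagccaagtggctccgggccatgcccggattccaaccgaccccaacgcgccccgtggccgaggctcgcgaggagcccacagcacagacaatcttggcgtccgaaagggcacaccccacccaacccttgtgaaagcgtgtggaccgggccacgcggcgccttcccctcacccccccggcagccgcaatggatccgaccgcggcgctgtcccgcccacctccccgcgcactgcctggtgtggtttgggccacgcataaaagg
Sod1, chr16:90220512-90220811, plus strand: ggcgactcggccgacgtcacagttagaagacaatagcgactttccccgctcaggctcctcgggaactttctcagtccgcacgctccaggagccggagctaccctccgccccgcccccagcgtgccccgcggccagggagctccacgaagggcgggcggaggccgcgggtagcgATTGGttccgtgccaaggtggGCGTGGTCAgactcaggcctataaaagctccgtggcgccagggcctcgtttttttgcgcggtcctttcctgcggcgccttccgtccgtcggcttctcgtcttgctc
Prdx1, chr4:116685349-116685648, plus strand: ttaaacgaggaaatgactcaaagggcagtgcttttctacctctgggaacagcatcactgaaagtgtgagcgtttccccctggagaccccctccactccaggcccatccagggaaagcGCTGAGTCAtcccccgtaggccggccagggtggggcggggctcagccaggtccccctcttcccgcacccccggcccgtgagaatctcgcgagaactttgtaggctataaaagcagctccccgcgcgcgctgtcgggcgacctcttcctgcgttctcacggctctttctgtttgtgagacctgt
Txnrd1, chr10:82858956-82859255, plus strand: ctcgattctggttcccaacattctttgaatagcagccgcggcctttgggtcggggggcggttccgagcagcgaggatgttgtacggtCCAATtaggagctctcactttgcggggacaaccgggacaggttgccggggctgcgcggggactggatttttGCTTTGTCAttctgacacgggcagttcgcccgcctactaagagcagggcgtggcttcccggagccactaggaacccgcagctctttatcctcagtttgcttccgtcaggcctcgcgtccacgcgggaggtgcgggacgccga
The antioxidant response element core was in 3 of the 16 windows, 1 each for Prdx1, Txnrd1 and Sod1, and in 12.4% of all 32841 windows of that length. A CCAAT box was in 7 of the 16 windows and in 37.4% of all windows, and 3 were in the Gpx4 window shown, 1 in that of Sod1 and 1 in that of Txnrd1. The GC box (GGGCGG on either strand, not capitalised) was in 11 of the 16 windows, the 6 shown among them, and in 35.7% of all windows. It was not in the first window of Gpx4 or in the other windows of Txnrd1. It had 4 matches for Sod1, which overlapped in pairs, 2 for Gpx4 and 1 each for Gpx1, Prdx2, Prdx1 and Txnrd1. The GC content was 47.0% for Gpx1 and 60.7% to 68.7% for the other windows shown, against a median of 52.7%. These are matches of letters and not measured binding sites.

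Most of the 10 transcripts were abundant. Background was taken as the 95th percentile of the means of 1429 olfactory, vomeronasal and trace amine receptor probe sets, which T cells are not known to use, and was a log2 signal of 8.80 in CD4+ Tconv, 8.08 in CD8+ T cells and 7.62 in Treg. Gpx4, Gpx1, Prdx1, Prdx2, Txn1, Fth1 and Sod1 lay above it on all 18 arrays. Txnrd1 lay above it on all 6 arrays of CD8+ T cells, on 2 of 6 in Treg and on 0 in CD4+ Tconv. Hmox1 lay above it on 0 arrays and Tfrc on 1, so both group means of these genes were below background in every subset. Their differences are drawn as open circles but not read. The sources used here do not say whether the subsets were normalized together, so orders of levels across subsets carry that limit. Sample titles number the CD4+ Tconv arrays in a run of their own and mix those of CD8+ T cells and Treg in another. What these numbers stand for is not stated. Levels of CD4+ Tconv against the other subsets therefore cannot be told apart from a difference between the runs. Before the results, 1 array stands apart. Treg HCME array 3 correlated with the remaining arrays of its subset at 0.926 on average, against 0.951 to 0.955, and its breadth of signal, taken as the upper decile of all probe sets minus the median of the receptors, was 4.32, against 4.75 to 5.12 for the other Treg arrays. In CD4+ Tconv the breadth was 3.0 to 3.20 on LME arrays and 3.49 to 3.86 on HCME arrays, so it moved with the treatment there, and LME array 2 had the lowest mean correlation (0.960, against 0.966 to 0.978). CD8+ T cells spanned 5.18 to 5.62 on LME arrays and 5.26 to 5.42 on HCME arrays. As these are bulk samples, fewer cells of a kind and less RNA per cell cannot be told apart.

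**Figure D1:**
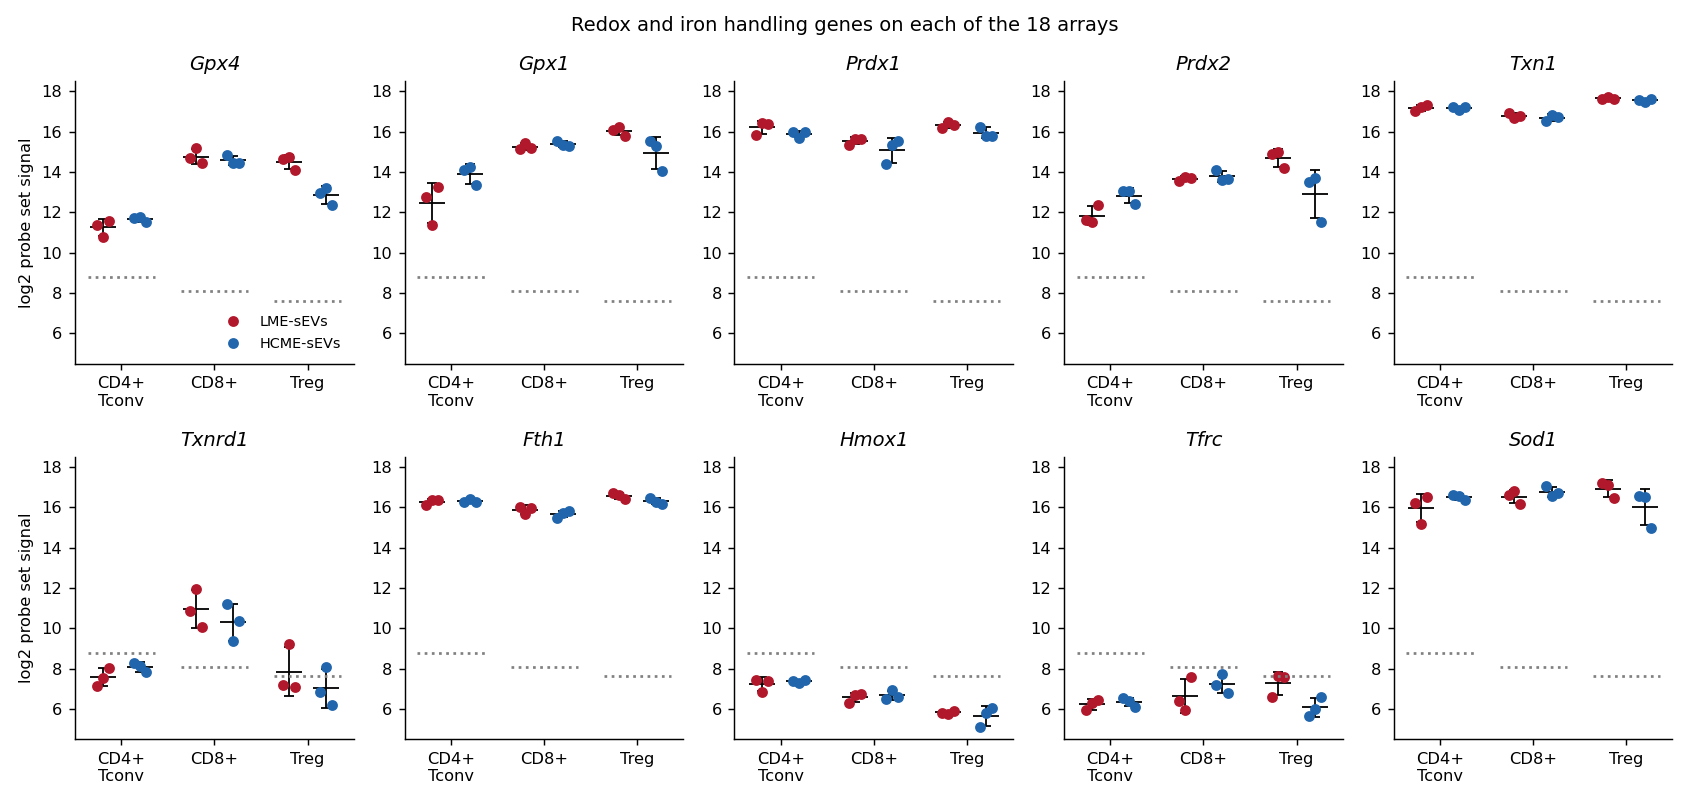
The log2 probe set signal of each gene (vertical axis) on each array, with LME-sEVs in red and HCME-sEVs in blue in each subset. Bars give the mean and SD of 3 arrays, and dotted lines give the receptor background of 8.80, 8.08 and 7.62. In Treg the 3 LME arrays of Gpx4, Gpx1 and Prdx2 sit above the 3 HCME arrays, and in CD4+ Tconv those of Gpx1 and Prdx2 sit below.

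None of the 10 genes was called in any subset, a call being an adjusted p below 0.05 in limma over all probe sets with a log2 difference beyond 1. These contrasts were used in choosing the genes, so nothing is read from the count. In CD4+ Tconv, 0.0721% of all probe sets were called higher (16) and 0.937% lower (208) with LME-sEVs, and 7.86% were higher and 10.9% lower at an unadjusted p below 0.05 (4170 probe sets in both directions). Lower calls made up 92.9% of these calls, but 41.9% where arrays were centred on their median above background, 73.3% by quantile normalization and 77.8% by cyclic loess. In CD8+ T cells 0% of probe sets were called, with 1.99% higher and 2.23% lower at an unadjusted p below 0.05 (936 in all). In Treg 0% were called, with 2.82% higher and 3.3% lower (1359 in all). The methods' t-test, which they name for figures in general and not for these arrays, called 0 probe sets in each subset.

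The direction of the differences was not the same in the 3 subsets. In Treg the mean was higher with LME-sEVs for 10 of 10 genes (9 with arrays centred above background, where Txn1 turned, and with Hmox1 and Tfrc below background throughout), with a median log2 difference of 0.86, against -0.06 over all probe sets. Without HCME array 3 that median was 0.39. In CD4+ Tconv it was lower for 8 of 10 (6 after quantile normalization or cyclic loess and 5 with centring, with Txnrd1, Hmox1 and Tfrc below background), with a median of -0.28, against 0.07 over all probe sets. The 7 of them above background had a median of -0.42, against -0.32 for all probe sets above background, so in CD4+ Tconv the members lay close to the other expressed probe sets. In CD8+ T cells 5 were higher and 5 lower, with a median of -0.01 and -0.00333 over all probe sets. All 3 LME arrays lay above all 3 HCME arrays for 3 genes in Treg, where this held for 4.72% of all probe sets, and for 0 in CD4+ Tconv (11.6%) and 0 in CD8+ T cells (4.35%). All 3 lay below for 2 genes in CD4+ Tconv (11.8% of all probe sets), 0 in CD8+ T cells (4.25%) and 0 in Treg (7.53%). Differences between the subsets were not tested.

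**Figure D2:**
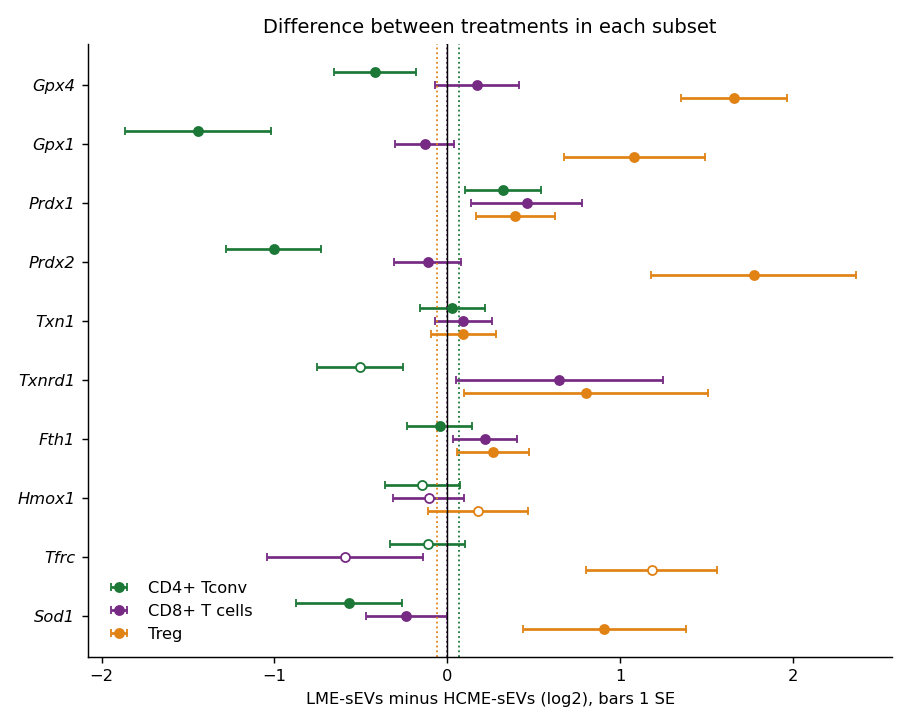
LME-sEVs minus HCME-sEVs (log2, horizontal axis) for each gene in CD4+ Tconv (green), CD8+ T cells (purple) and Treg (orange), with bars of 1 SE from limma over 6 arrays. Open circles have both group means below background, and dotted lines give the median of all probe sets. Gpx4, Gpx1, Prdx2 and Sod1 lie right of 0 in Treg and left of 0 in CD4+ Tconv (there Gpx4 turned to 0.01 and 0.04 after quantile normalization and cyclic loess), while Txn1, Fth1 and Prdx1 reach at most 0.46 (Prdx1 in CD8+ T cells).

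Gpx4 encodes the glutathione peroxidase that reduces lipid peroxides inside membranes. In Treg its log2 signal was 14.65, 14.74 and 14.10 with LME-sEVs, against 12.97, 13.20 and 12.34 with HCME-sEVs. The groups did not overlap, the lowest LME array lying well above the highest HCME array. The means were 14.50 ± 0.35 and 12.84 ± 0.45 (SD, n = 3 each), a difference of 1.66 (SE 0.31) or 3.16-fold, and 0.919% of all probe sets had a larger rise. Without HCME array 3 the difference was 1.41. In CD4+ Tconv the arrays read 11.37, 10.79 and 11.59 with LME-sEVs, against 11.70, 11.79 and 11.51 with HCME-sEVs, so that the groups overlapped. The difference there was -0.42 (SE 0.24), and its sign turned after quantile normalization (0.01) and cyclic loess (0.04) and was -0.19 without LME array 2. For CD8+ T cells the values of 14.67, 15.17 and 14.42 with LME-sEVs and 14.84, 14.46 and 14.44 with HCME-sEVs were mixed, with a difference of 0.17 (SE 0.24). Over the groups, the LME and HCME arrays of CD8+ T cells and the LME arrays of Treg met each other at the top, the HCME arrays of Treg stood apart below them, and CD4+ Tconv was lowest.

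Gpx1 encodes the abundant soluble glutathione peroxidase that removes hydrogen peroxide. In CD4+ Tconv it read 12.77, 11.35 and 13.26 with LME-sEVs, against 14.09, 14.26 and 13.36 with HCME-sEVs. All LME arrays were lower, although LME array 3 and HCME array 3 nearly met. The difference was -1.44 (SE 0.42), with means of 12.46 ± 0.99 and 13.90 ± 0.48 (SD, n = 3 each), and without LME array 2 it was -0.89. In Treg the arrays read 16.09, 16.20 and 15.79 with LME-sEVs, against 15.51, 15.30 and 14.02 with HCME-sEVs. Here all LME arrays were higher, by 1.08 in the mean (SE 0.41), and HCME array 3 was far below the other two, so that the difference without it was 0.62. The groups were interleaved in CD8+ T cells, at 15.14, 15.44 and 15.17 with LME-sEVs and 15.53, 15.34 and 15.27 with HCME-sEVs (-0.13, SE 0.17). In the order of group means the LME arrays of Treg stood alone at the top and the LME arrays of CD4+ Tconv alone at the bottom, with the neighbours between them meeting each other.

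Prdx2 encodes a cytosolic peroxiredoxin that is also one of the main peroxide scavengers of red blood cells. In Treg it read 14.88, 15.01 and 14.17 with LME-sEVs, against 13.49, 13.72 and 11.53 with HCME-sEVs. The groups did not overlap, with a difference of 1.77 (SE 0.59), and HCME array 3 was again the lowest by far. Without that array the difference was 1.08. In CD4+ Tconv it read 11.62, 11.50 and 12.36 with LME-sEVs, against 13.05, 13.05 and 12.39 with HCME-sEVs, a difference of -1.0 (SE 0.28) with array 3 of both groups nearly equal. Quantile normalization and cyclic loess both brought that difference to between -0.53 and -0.52, and without LME array 2 it was -0.84. CD8+ T cells held 13.54, 13.77 and 13.68 with LME-sEVs and 14.08, 13.61 and 13.64 with HCME-sEVs, which overlapped (-0.11, SE 0.19). As for Gpx1, the LME arrays of Treg stood alone at the top of the 6 groups. Those of CD4+ Tconv had the lowest mean but did not stand alone, since Treg HCME array 3 (11.53) lay within their range.

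Prdx1, the other cytosolic peroxiredoxin, did not follow Prdx2. Its mean was higher with LME-sEVs in all 3 subsets, by 0.32 (SE 0.22) in CD4+ Tconv, 0.46 (SE 0.32) in CD8+ T cells and 0.39 (SE 0.23) in Treg, and the groups overlapped in each. In CD4+ Tconv the arrays read 15.84, 16.43 and 16.35 with LME-sEVs, against 15.96, 15.70 and 15.99 with HCME-sEVs, where Prdx2 had the opposite sign. CD8+ T cells read 15.35, 15.62 and 15.65 with LME-sEVs, against 14.38, 15.31 and 15.55 with HCME-sEVs, and without HCME array 1 the difference was 0.11. In Treg they read 16.18, 16.48 and 16.31 with LME-sEVs, against 16.24, 15.79 and 15.76 with HCME-sEVs. CD8+ T cells had the lowest 2 group means of Prdx1.

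Txn1, the cytosolic thioredoxin that recharges peroxiredoxins, was the steadiest of the 10. Its pooled SD within groups was 0.11, and the largest of its 3 differences was 0.09 (SE 0.17 in CD8+ T cells and 0.19 in Treg), against 0.03 (SE 0.19) in CD4+ Tconv. Mean levels with LME-sEVs and HCME-sEVs were 17.64 and 17.55 in Treg, 17.18 and 17.15 in CD4+ Tconv, and 16.79 and 16.69 for the CD8+ subset. The order was Treg above CD4+ Tconv above CD8+ T cells, and arrays of different subsets did not meet at either step.

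Txnrd1, the selenoprotein that reduces thioredoxin with NADPH, was the most variable, with a pooled SD of 0.85. In CD8+ T cells it read 10.86, 11.93 and 10.08 with LME-sEVs, against 11.19, 9.36 and 10.37 with HCME-sEVs, and the groups overlapped (difference 0.65, SE 0.60). That difference was 0.16 without LME array 2, 0.18 without HCME array 2 and 1.09 without LME array 3 or HCME array 1. In Treg it read 7.18, 9.24 and 7.10 with LME-sEVs, against 6.84, 8.09 and 6.18 with HCME-sEVs. Only array 2 of each treatment was above background there. In CD4+ Tconv all 6 arrays lay between 7.16 and 8.30, below background. The CD8+ T cell arrays of both treatments stood above all others, since the lowest of them (9.36) exceeded the highest array of any other group (9.24).

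Sod1, the copper and zinc superoxide dismutase of the cytosol, behaved like the glutathione peroxidases in direction but with overlapping groups. In Treg it read 17.21, 17.10 and 16.44 with LME-sEVs, against 16.55, 16.50 and 14.97 with HCME-sEVs, a difference of 0.91 (SE 0.47) that was 0.39 without HCME array 3. In CD4+ Tconv it read 16.19, 15.16 and 16.50 with LME-sEVs, against 16.62, 16.57 and 16.36 with HCME-sEVs, a difference of -0.57 (SE 0.31) that was -0.17 without LME array 2. So 1 array in each subset made up most of the distance between the means. CD8+ T cells read 16.59, 16.81 and 16.17 with LME-sEVs, against 17.04, 16.54 and 16.70 with HCME-sEVs (-0.24, SE 0.23). Every neighbouring pair in the order of the 6 group means met.

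Of the iron genes only Fth1 was above background. Fth1 encodes the ferritin heavy chain, which oxidises iron for storage. It read 16.13, 16.36 and 16.35 with LME-sEVs, against 16.26, 16.43 and 16.28 with HCME-sEVs in CD4+ Tconv (difference -0.04, SE 0.19). CD8+ T cells read 16.02, 15.64 and 15.98 with LME-sEVs, against 15.49, 15.70 and 15.80 with HCME-sEVs (0.22, SE 0.18). Treg read 16.68, 16.61 and 16.41 with LME-sEVs, against 16.48, 16.24 and 16.18 with HCME-sEVs (0.27, SE 0.21). The groups overlapped in every subset, and the CD8+ T cell arrays were below those of the other subsets. Hmox1, the inducible heme oxygenase, was below background everywhere. Its means with LME-sEVs and HCME-sEVs were 6.58 and 6.69 in the CD8+ subset, 5.83 and 5.66 in Treg and 7.24 and 7.38 in CD4+ Tconv. Tfrc, the receptor for iron-loaded transferrin, was also below background by its group means. In Treg it read 6.59, 7.65 and 7.57 with LME-sEVs, against 5.67, 6.0 and 6.59 with HCME-sEVs, the groups touching at 6.59 and LME array 2 alone passing the background of 7.62. Tfrc read 5.95, 6.32 and 6.46 with LME-sEVs and 6.54, 6.41 and 6.12 with HCME-sEVs in CD4+ Tconv, and 6.41, 5.96 and 7.59 with LME-sEVs and 7.18, 7.73 and 6.82 with HCME-sEVs in CD8+ T cells.

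Beyond the group means, Gpx4, Gpx1, Prdx2 and Sod1 went up and down together from array to array, a pattern within groups that the group means do not contain. For each array its deviation from its own group mean was taken, which leaves out both subset and treatment. Over 18 arrays the 6 pairs of these genes had Pearson's r of 0.80 to 0.92 and Spearman's rho of 0.82 to 0.91. They were the pairs with the highest r among all pairs of the genes described. The set was chosen after the values were seen, so the height of the range follows in part from that choice. The points share the array, and with it the RNA extraction, labelling and normalization of that sample, so the values are a description with no p. The range of r was 0.70 to 0.99 within CD4+ Tconv, 0.62 to 0.93 within CD8+ T cells and 0.86 to 0.99 within Treg (6 arrays each), with rho of 0.75 to 1, 0.52 to 0.94 and 0.60 to 0.94 in that order. Within Treg without HCME array 3, r was 0.73 to 0.96 and rho 0.30 to 0.90 over 5 arrays. Without CD4+ Tconv LME array 2 and Treg HCME array 3, the farthest from their group means in this set, r was 0.72 to 0.90 over 16 arrays. Where an array was left out, deviations were still taken from the group mean that included it. Its pull stays in the remaining arrays of that group, so these values cannot tell whether the genes went together without it. On Treg HCME array 3 the deviations were -0.50 for Gpx4, -0.92 for Gpx1, -1.38 for Prdx2 and -1.04 for Sod1. On CD4+ Tconv LME array 2 they were -0.46, -1.11, -0.33 and -0.79 for the genes in that order.

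Prdx1, Txn1 and Fth1 went together more loosely, with r of 0.61 for Prdx1 and Txn1 and 0.49 for each of the other 2 pairs. Txnrd1 went with the first set in part, with r of 0.72 to Gpx4, 0.60 to Prdx2, 0.55 to Sod1 and 0.40 to Gpx1. Without the 2 arrays, and with the group means kept as above, its r to Gpx4 was 0.76. That is above 2 of the pairs within the set on those arrays. Txnrd1 was below background on every array of CD4+ Tconv and on most of Treg, so its r values rest in part on signal at background. Tfrc ran against Sod1 (-0.51) and Gpx4 (-0.48), at a signal below background.

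**Figure D3:**
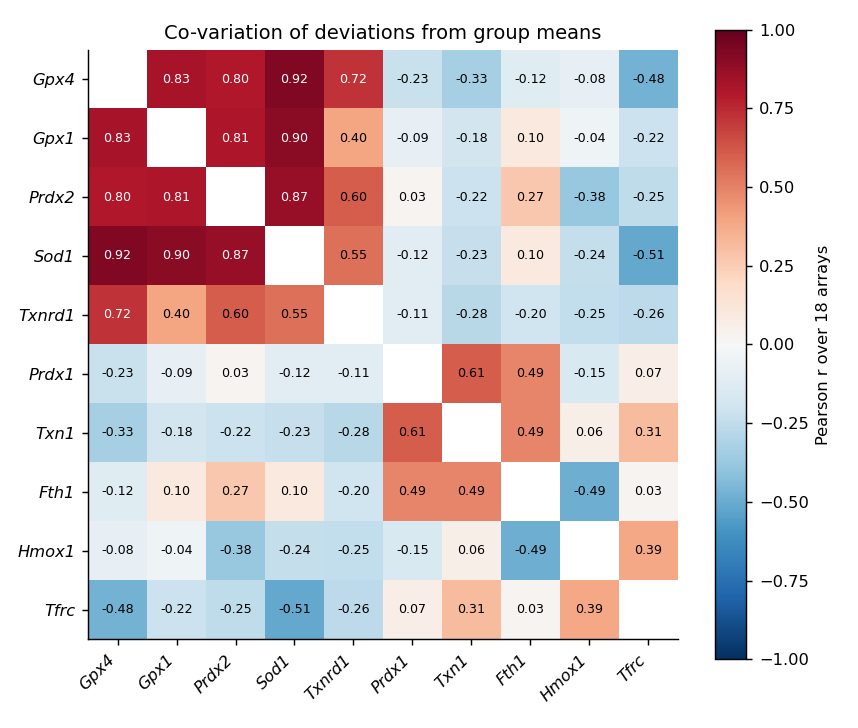
Pearson's r between the deviations of each pair of genes from their group means over 18 arrays (red above 0, blue below 0, numbers in the cells). The block of Gpx4, Gpx1, Prdx2 and Sod1 at the upper left holds values of 0.80 to 0.92.

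**Figure D4:**
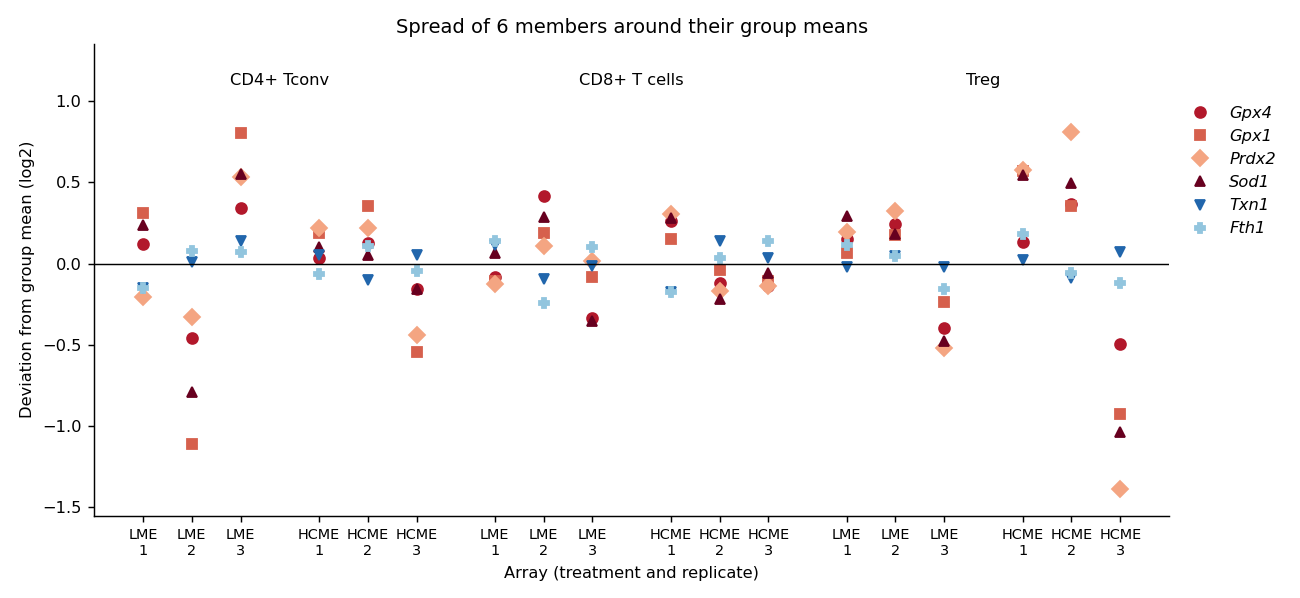
Deviation from the group mean (log2, vertical axis) of 6 genes on each of the 18 arrays, ordered by subset, treatment and replicate. Gpx4, Gpx1, Prdx2 and Sod1 (red shades) lie below 0 together on Treg HCME array 3 and on CD4+ Tconv LME array 2, where Txn1 and Fth1 (blue shades) stay within 0.12 of 0.

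Many abundant transcripts shared part of this pattern. Of the other probe sets 0.806% had an r above 0.8 with the mean of the 4 genes, and among the most abundant probe sets, the tenth with the top mean signals, 6.13% did. The genes most like it were chosen after their values were seen. They were Ftl1 (r = 0.96), the ferritin light chain, Sdf2 (0.95), the ribosomal protein gene Rpl8 (0.95) and the translation initiation factor subunit Eif3h (0.95). The breadth of signal on an array moved in part with the same genes. Its r with the deviations was 0.68 for Prdx2, 0.62 for Gpx1, 0.57 for Gpx4, 0.57 for Sod1 and 0.55 for Txnrd1, and -0.10 for Txn1 and 0.12 for Fth1, against a median of -0.15 over all probe sets and 0.22 over the tenth with the highest mean. The part of the breadth in the differences was not tested.

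The wider pathway was counted from 11 lists of 135 other genes, of which 126 were measured, each tested in the fit over all probe sets. The lists were written with earlier results of these arrays known. In CD4+ Tconv 5 of 126 fell and 0 rose with LME-sEVs, against 0.937% of all probe sets called lower and 0.0721% called higher. Their median was -0.18, against 0.07 over all probe sets and -0.32 over those above background. At an unadjusted p below 0.05, 34 were lower and 4 higher, against 10.9% and 7.86% of all probe sets. In CD8+ T cells 0 of 126 were called by limma, with 4 higher and 7 lower at an unadjusted p below 0.05 (1.99% and 2.23% of all probe sets) and a median of 0.01, against -0.00333 over all. In Treg 0 were called by limma, with 11 higher and 3 lower at an unadjusted p below 0.05 (2.82% and 3.3% of all probe sets) and a median of 0.08, against -0.06 over all.

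The genes that fell in CD4+ Tconv came from the glutathione, thioredoxin, peroxide and selenoprotein lists. Mgst2, a membrane-bound glutathione transferase, read 15.40, 15.95 and 15.81 with LME-sEVs, against 17.30, 17.57 and 17.21 with HCME-sEVs, and fell by 1.64 (SE 0.22, limma, adjusted p = 0.0330). Every LME array lay below every HCME array. Selenow, a small selenoprotein of redox function, read 10.65, 9.31 and 10.45 with LME-sEVs, against 11.68, 12.13 and 11.44 with HCME-sEVs (log2 difference -1.61, SE 0.33, limma adjusted p = 0.0490). Txnip, which binds and inhibits thioredoxin, read 14.51, 14.08 and 14.45 with LME-sEVs, against 15.60, 15.99 and 15.61 with HCME-sEVs (-1.39, SE 0.21, limma adjusted p = 0.0352). Its partner Txn1 differed by 0.03 on the same arrays, and by 0.18 to 0.32 under the other scalings. Cyba, a membrane subunit of the NADPH oxidase that makes superoxide, read 10.22, 9.58 and 9.94 with LME-sEVs, against 11.41, 11.46 and 10.96 with HCME-sEVs (-1.36, SE 0.23, limma adjusted p = 0.0372). Cat, the catalase of peroxisomes, read 9.49, 9.50 and 10.17 with LME-sEVs, against 11.22, 10.85 and 10.90 with HCME-sEVs (-1.27, SE 0.24, limma adjusted p = 0.0430). Ftl1, the ferritin light chain, had the next largest difference above background (-1.22, SE 0.39, limma adjusted p = 0.138) and was not called. After quantile normalization, cyclic loess or centring above background, 1 of these 5 calls was left, that of Mgst2, and without LME array 1, HCME array 1 or HCME array 2 there were 0.

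**Figure D5:**
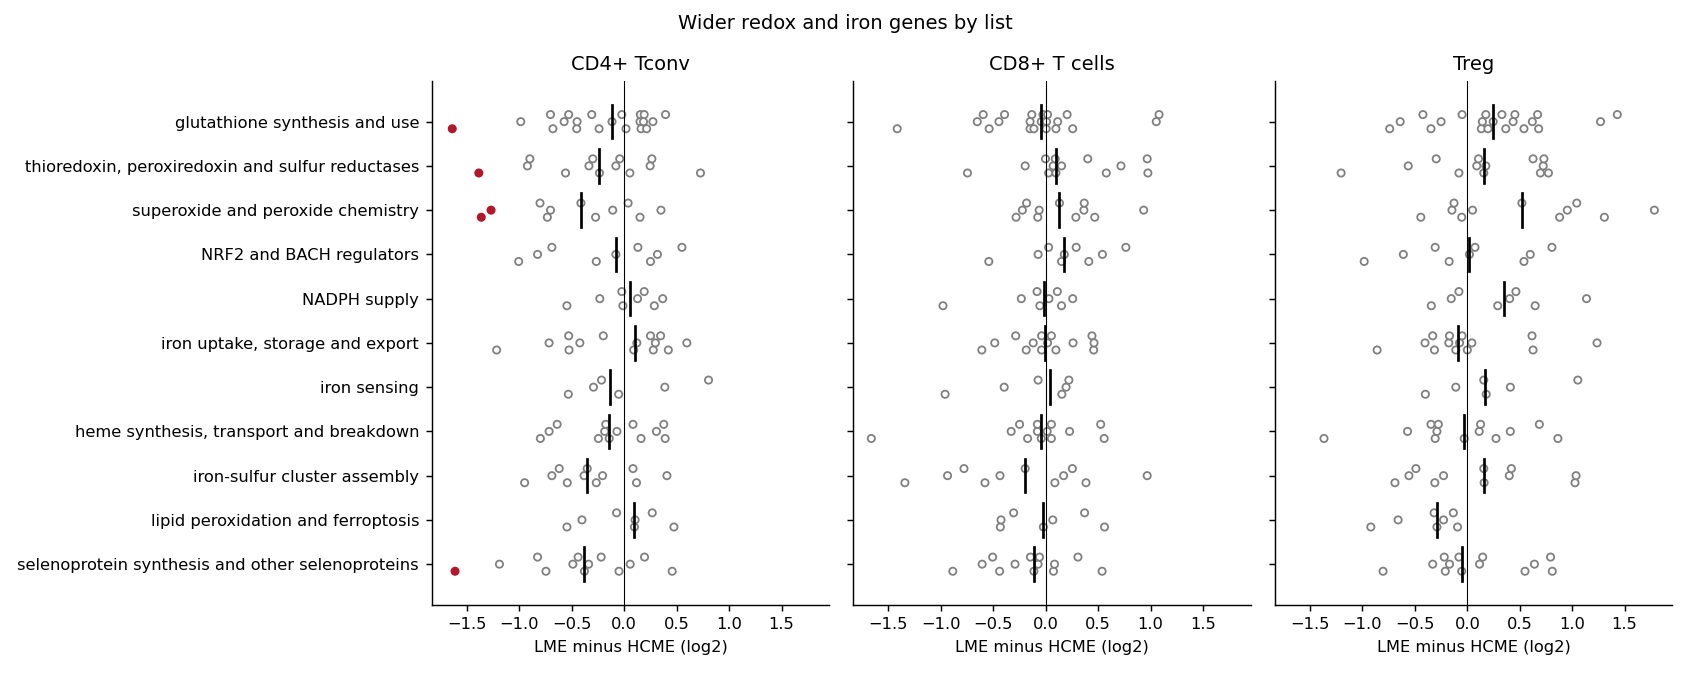
LME minus HCME (log2, horizontal axis) of each measured gene of the 11 wider lists in CD4+ Tconv, CD8+ T cells and Treg. Differences are plotted as measured, also where 1 or both groups were below background. Filled red circles passed the test, open circles did not, and black bars give list medians. The 5 filled circles are all in CD4+ Tconv and left of 0.

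By list, the median difference in CD4+ Tconv was lowest for superoxide and peroxide chemistry (-0.41, 8 of 11 lower), other selenoproteins (-0.38, 10 of 13 lower) and iron-sulfur cluster assembly (-0.35, 8 of 11 lower), against 0.07 for all probe sets and -0.32 for those above background. It was highest for iron uptake, storage and export (0.11, 8 of 14 higher), lipid peroxidation and ferroptosis (0.10, 4 of 7 higher) and NADPH supply (0.06, 4 of 8 higher). Above background were 5, 9 and 6 genes of the lowest lists and 6, 2 and 2 of the highest, in the order named. The order of medians thus rests in part on genes at background, where the receptors had a median difference of 0.32. In Treg the median was highest for superoxide and peroxide chemistry (0.52, 7 of 11 higher), NADPH supply (0.35, 5 of 8 higher) and glutathione synthesis and use (0.25, 15 of 21 higher). It was lowest for lipid peroxidation and ferroptosis (-0.29, 7 of 7 lower). Above background there were 8, 4, 11 and 3 genes of these lists in that order. Of the other lists in CD4+ Tconv, thioredoxin and sulfur reductases had a median of -0.24, glutathione -0.12, heme -0.14 and iron sensing -0.135. In Treg they were 0.17 for iron sensing, 0.16 for thioredoxin and sulfur reductases, 0.16 for iron-sulfur cluster assembly, -0.03 for heme, -0.05 for other selenoproteins and -0.09 for iron uptake, storage and export. The 11 medians of CD8+ T cells lay between -0.20 and 0.18. The regulators NRF2 and BACH had medians of -0.08 in CD4+ Tconv, 0.18 in CD8+ T cells and 0.02 in Treg.

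The uncalled genes with the largest differences in Treg were Cyba (1.78), Gstp1 (1.43), a glutathione transferase, Chac2 (1.27), an enzyme that breaks down glutathione, Ftl1 (1.24), Txn2 (-1.20), the mitochondrial thioredoxin, and Flvcr1, a heme exporter that was below background on the 3 LME arrays and at least 1.19-fold lower. Chac2 and Txn2 overlapped between the groups, and without HCME array 3 the differences were 0.95 for Cyba, 1.09 for Gstp1, 0.83 for Chac2, 0.73 for Ftl1 and -0.57 for Txn2. The limma adjusted p of these genes ran from 0.8 to 0.834. Cyba read 14.42, 14.76 and 13.67 with LME-sEVs, against 13.30, 13.36 and 10.84 with HCME-sEVs, with HCME array 3 the lowest as for Prdx2. Ftl1 read 14.45, 14.49 and 13.55 with LME-sEVs, against 13.37, 13.49 and 11.92 with HCME-sEVs. In CD4+ Tconv the LME arrays of both genes lay below the HCME arrays. Of the genes with the largest differences in CD8+ T cells, 5 were below background on all 3 arrays of 1 group. A bound is given for such genes, the mean of the brighter group over that of the dimmer one with its arrays raised to the background. Abcg2, a transporter that exports porphyrins, read 6.77, 7.04 and 6.84 with LME-sEVs, against 8.32, 8.30 and 9.02 with HCME-sEVs, at least 1.38-fold lower (limma adjusted p = 0.553). Gss, the last enzyme of glutathione synthesis, was at least 1.26-fold lower and Idh1, a source of NADPH, at least 1.09-fold lower. Gsr, the reductase of oxidised glutathione, was at least 1.31-fold higher, and Gstm1, a glutathione transferase, at least 1.26-fold higher. Gstm1 overlapped between the groups (9.74, 8.29 and 7.22 with LME-sEVs, against 7.19, 7.55 and 7.35 with HCME-sEVs), as did Gss. Lyrm4 of iron-sulfur cluster assembly read 8.73, 6.75 and 10.24 with LME-sEVs, against 10.17, 9.69 and 9.89 with HCME-sEVs, an overlapping difference of -1.34 that was -0.43 without LME array 2. These genes other than Abcg2 had a limma adjusted p of 0.939 or 0.998.

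Some of these genes are abundant in other blood cells too, among them Prdx2 and Cat in red blood cells, and marker lists of such cells were set beside the redox genes. Cd8b1 averaged 17.08 with LME-sEVs and 17.18 with HCME-sEVs in CD8+ T cells, against 9.01 to 10.25 in the groups of the other subsets, and Cd8a averaged 13.68 and 13.52, against 7.28 to 7.76. Cd4 averaged 10.32 with LME-sEVs and 9.76 with HCME-sEVs in Treg, 10.21 with LME-sEVs and 10.15 with HCME-sEVs in CD4+ Tconv, against 8.66 and 8.56 in CD8+ T cells. Foxp3 was not analysed here. Of 13 measured erythroid markers 0 were called in any subset, and only Slc4a1, with Alas2 in Treg, was above background. Their median difference was 0.17 in CD4+ Tconv, -0.01 in CD8+ T cells and 0.01 in Treg, and their mean signal per array was 7.38 to 7.44 with LME-sEVs and 7.18 to 7.29 with HCME-sEVs in CD4+ Tconv, and 6.30 to 6.41 with LME-sEVs and 6.31 to 6.50 with HCME-sEVs in Treg. The receptor probe sets that set the background had a median difference of 0.32 in CD4+ Tconv, above that of the erythroid list. Of 17 macrophage markers 0 were called, with medians of 0.26 in CD4+ Tconv, 0.01 in CD8+ T cells and -0.08 in Treg, and 1 of them was above background, Lyz2 in CD4+ Tconv (9.30 with LME-sEVs and 8.97 with HCME-sEVs). The 11 B cell markers had medians of 0.06, 0.06 and 0.04, with Pax5 and Ebf1 the largest differences in Treg (limma adjusted p = 0.8 and 0.815), where the 3 HCME arrays were below background and LME-sEVs at least 1.22-fold and 1.9-fold higher. Pax5 overlapped between the groups (8.32, 8.67 and 6.74 with LME-sEVs, against 6.25, 7.10 and 6.79 with HCME-sEVs). Ebf1 did not overlap, at 7.91, 9.99 and 7.72 with LME-sEVs, against 7.44, 7.37 and 7.56 with HCME-sEVs. In Treg 8 of the 11 were higher and 3 lower. At an unadjusted limma p below 0.05, 1 was lower there and 0 higher.

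As a list, the general T cell markers differed in the same directions as Gpx1 and Prdx2. The 9 measured T cell markers were lower with LME-sEVs in CD4+ Tconv for 9 of 9 (median -0.73), where 1 fell, Thy1 (limma adjusted p = 0.0330). Thy1 was below background on all 3 LME arrays (7.81, 8.21 and 7.48, against 9.56, 9.65 and 9.27 with HCME-sEVs) and thus at least 1.61-fold lower. Cd3e differed by -1.40 (limma adjusted p = 0.0828). In Treg 9 of 9 had a higher mean (median 0.60) and 0 were called by limma, none at an unadjusted p below 0.05. Of the 8 measured Treg markers 5 were higher and 3 lower in Treg (median 0.18). In CD4+ Tconv 6 were higher and 2 lower (median 0.185, 1 above background). Ctla4 read 12.16, 12.36 and 12.11 with LME-sEVs in Treg, against 11, 10.48 and 7.83 with HCME-sEVs. Tnfrsf18 read 15.29, 15.0 and 14.20 with LME-sEVs there, against 13.56, 13.56 and 11.84 with HCME-sEVs (limma adjusted p = 0.8 for both). HCME array 3 was the lowest array for both, as for Gpx4, Gpx1, Prdx2 and Sod1. The remaining lists had 0 calls, apart from Cd7 of the CD8 list in CD4+ Tconv (limma adjusted p = 0.0431), at 8.54, 7.86 and 8.85 with LME-sEVs, where 1 of 3 arrays passed background, against 10.26, 10.67 and 9.50 with HCME-sEVs. Given as CD4+ Tconv, then CD8+ T cells, then Treg, the medians were 0.15, 0.10 and -0.30 for neutrophils, 0.10, 0.07 and 0.02 for platelets, 0.06, 0.10 and 0.53 for the CD4 list, -0.87, -0.08 and 0.32 for the CD8 list, and -0.04, -0.08 and 0.03 for proliferation. Runx3 of the CD8 list read 11.86, 8.52 and 10.01 with LME-sEVs in Treg, against 8.51, 8.63 and 5.5 with HCME-sEVs (limma adjusted p = 0.8), and in CD4+ Tconv it was below background on the 3 LME arrays and 2 of the 3 HCME arrays. Cd40lg, the CD40 ligand, differed by -1.0 in CD4+ Tconv (limma adjusted p = 0.0744). It was lower in Treg too, opposite to Gpx1 and Prdx2, at 6.34, 6.36 and 7.04 with LME-sEVs, against 7.78, 7.40 and 7.71 with HCME-sEVs. The limma adjusted p there was 0.766, and the LME arrays were below background. The part of these lists in the differences of the redox genes was not tested.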

How the data were processed

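RNA of 18 samples was hybridised to Clariom S mouse arrays. The deposited values are log2 signals, 1 per probe set, made by the authors with the Transcriptome Analysis Console. The sources used here give neither the normalization nor a genome build, and labels and methods name different labelling kits. Arrays were not altered further. Gene symbols came from the platform annotation, which gave 1 symbol for 19572 of 22206 probe sets, several for 0 and none for 2634. Groups and replicate numbers came from the sample titles. No 2 arrays were identical.

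The 6 arrays of a subset entered 1 fit (lmFit and eBayes of limma 3.58.1, R 4.3.3; LME minus HCME), with Benjamini-Hochberg adjustment over 22206 probe sets, as the study's thresholds ask (adjusted p below 0.05, log2 difference beyond 1). The fit was tested on simulated data. The number of arrays limits the precision. The 10 genes, the gene lists and the tests were chosen with earlier results of these data known. Of the wider lists, all called genes and the 6 largest differences among genes with at least 1 group mean above background were named in each subset. Of each marker list the 2 largest were taken in the same way, and only some of them are named. Alternatives were other scalings (quantile, cyclic loess, centring), a background filter, limma's trend, robust and array weight options, 1 fit of all arrays, a replicate block, the methods' t-test and leaving out each array.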

Additional observations from a re-analysis of the deposited data

Results flagged for a closer look

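5 genes stood on opposite sides in 2 subsets, with all 3 LME arrays above all 3 HCME arrays in Treg and below them in CD4+ Tconv. The effect in Treg minus the effect in CD4+ Tconv was 2.78 on the log2 scale for Prdx2, 2.53 for Gpx1, 3.15 for Cyba, 2.31 for Cat and 2.45 for Ftl1. The difference was not tested. The pattern was looked for in 26 genes, the 10 described and those named from the wider lists, and 1% of all 22206 probe sets showed it (4.72% lay above in Treg and 11.8% below in CD4+ Tconv). Prdx2 and Gpx1 were among the genes chosen with these contrasts known. Cyba, Cat and Ftl1 were named from the wider lists for a call or a large difference in these same contrasts. Nothing is therefore read from the count of genes beside the share of all probe sets. On the Treg side HCME array 3 was the lowest array for each of the 5 genes, and without it the Treg difference was 1.08 for Prdx2, 0.62 for Gpx1, 0.95 for Cyba, 0.63 for Cat and 0.73 for Ftl1.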

How the results depend on the processing

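In CD4+ Tconv the 224 called probe sets became 30 after quantile normalization, 36 after cyclic loess, 31 with arrays centred above background, 475 with array weights, 49 with trend and robust options, 11 with all 18 arrays in 1 fit, 374 over probe sets above background only and 0 by the methods' t-test, and 0 to 442 with 1 array left out. The 5 called wider genes became 1, 1, 1, 8, 2, 2 and 0 under the same settings without the filter, and 0 to 8 with 1 array left out. With the replicate block these counts were 2 and 0. No pairing by replicate number was seen. The deviations of same-numbered arrays correlated at -0.10 to 0.14, and those of differently numbered arrays at -0.21 to 0.26. With 3 arrays in each group these values cannot decide whether replicates were paired. In Treg, 26 probe sets were called with all 18 arrays in 1 fit, Gpx4 among them and no wider gene, and 0 in every other setting. CD8+ T cells had 0 calls in every setting. The replicate block changed no other count. With centring, the median over all probe sets was 0.36 in CD4+ Tconv and -0.18 in Treg. It brought the median of the 10 genes to 0.01 in CD4+ Tconv, where Fth1 (0.25) and the below-background Hmox1 and Tfrc changed sign, and in Treg Txn1 turned to -0.03. Fth1 in CD4+ Tconv also turned after quantile normalization (0.21) and cyclic loess (0.28). With 1 array left out the median of the 10 genes was -0.41 to -0.16 in CD4+ Tconv, -0.10 to 0.07 in CD8+ T cells and 0.39 to 1.15 in Treg, the lowest without HCME array 3. Leaving out each array for the named wider genes was chosen after seeing the data, and it turned the sign of 0 of them. The causes were not tested. Signals at background limit Hmox1, Tfrc and, outside CD8+ T cells, Txnrd1.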
